A study of Mus musculus with 4 samples.

Results

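The data concern 7 forkhead transcription factor genes, Foxf1, Foxf2, Foxp1, Foxp2, Foxp4, Foxo1 and Foxo3, in lung fibroblasts of the mouse. They were chosen by name, and each was found as 1 entry among the 23444 gene symbols of the deposited table. RNA was sequenced from lung cells of wild-type C57BL6 mice sorted for Pdgfra, a receptor of platelet-derived growth factor that marks lung fibroblasts. The groups are 2 fetal ages, days 16.5 (E16.5) and 18.5 (E18.5) of gestation, and 2 ages after birth, days 7 (P7) and 28 (P28). Each age had 1 library, with no drug or altered gene in any of them. Embryos and mice came from timed pregnancies, and the sources used here do not say whether a library pooled several animals. Since an age is 1 library, its spread over animals is unknown and no test was run, and differences are described by size alone.

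Forkhead proteins bind DNA through a winged-helix domain that the whole family shares. FoxF factors are made in the mesenchyme of the lung and gut, where hedgehog signals from the epithelium act upstream of them, and Foxf1 is also needed in pulmonary capillary endothelium. FoxP factors are mainly repressors that pair through a leucine zipper and recruit the CtBP and NuRD corepressors, and in lung they are best known in epithelium. FoxO factors act when insulin and growth factor signalling is low, because AKT phosphorylates them and 14-3-3 proteins then hold them outside the nucleus.

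Levels are given in FPKM, fragments per length of transcript and per number of mapped fragments, a unit that allows genes to be compared within a library. The E18.5 library lay low in scale. Among genes at 5 FPKM or more in either library of a pair, the fetal libraries had a median difference in log2(FPKM + 1) of -0.96 (E18.5 lower). It was 1.23 between E18.5 and P7 (P7 higher), but only -0.36 between P7 and P28 (P28 lower) and 0.23 between E16.5 and P7 (P7 higher). Values are therefore given as deposited and after median-ratio scaling, which moved these medians to -0.02, 0.05, -0.01 and -0.04. Where 4 values follow each other without their ages, they are in order of age. Ranks and ratios within a library do not depend on its scale. Pdgfra stood between 88.7 FPKM at E16.5 and 188 at P28, and 0 of 12 general fibroblast genes were listed at 0 in any library. Markers of other cells were present as well: the summed share of FPKM of 15 endothelial genes was highest at P7 (0.536%), that of 16 epithelial genes at P28 (14.1%) and that of the erythroid genes at E18.5 (0.487%). Leukocyte genes were highest at E16.5: all 14 measured stood at least 2-fold above both E18.5 and P7, and 13 above P28, where Lyz2, a lysozyme gene, was the exception. Of all genes at 5 FPKM or more, 47.4%, 6.68% and 16.9% were that much lower in these libraries (12.2%, 9.62% and 15% after scaling).

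Foxf1, the principal FoxF factor of lung mesenchyme (GRCm38 chromosome 8, 121084386 to 121088144, plus strand), stood at 34.5 FPKM (E16.5) and 17.4 (E18.5) in the fetal libraries, then at 126 (P7) and 16.6 (P28). Scaling turned these into 30.0, 30.0, 91.3 and 15.4, so that the fetal libraries were level, P7 was the high one and P28 the low one. P7 stood 3.04-fold above E18.5 and 5.92-fold above P28 after scaling (7.22-fold and 7.56-fold as deposited). Within its own library Foxf1 held ranks of 813, 839, 207 and 1962 among all symbols. At E16.5, E18.5 and P7 it was the most abundant of the 44 forkhead genes in the table, though at E18.5 Foxo3 was close (17.0 FPKM).

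Foxf2, its close paralogue, which is also made in mesenchyme (chromosome 13, 31625816 to 31631403, plus strand), stood at 26.4 FPKM (E16.5), 13.4 (E18.5), 60.2 (P7) and 13.7 (P28). P7 was highest, as for Foxf1, and the E18.5 and P28 libraries were close to each other. Its scaled values of 23.0, 23.1, 43.7 and 12.7 put P28 lowest. The difference in log2(FPKM + 1) for P7 against E18.5 was 2.09 as deposited and 0.89 after scaling, and for P28 against P7 it was -2.05 and -1.70. The ratio of Foxf1 to Foxf2 was 1.31, 1.30, 2.09 and 1.21. Both genes thus stood high at P7, and there Foxf1 stood further above Foxf2 than in the other 3 libraries. Relative to Pdgfra in the same library, Foxf1 had ratios of 0.389, 0.182, 1.11 and 0.0886, and Foxf2 of 0.297, 0.140, 0.533 and 0.0732. At P7, then, Foxf1 was the only 1 of the pair with a higher FPKM than the sort marker.

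**Figure D1:**
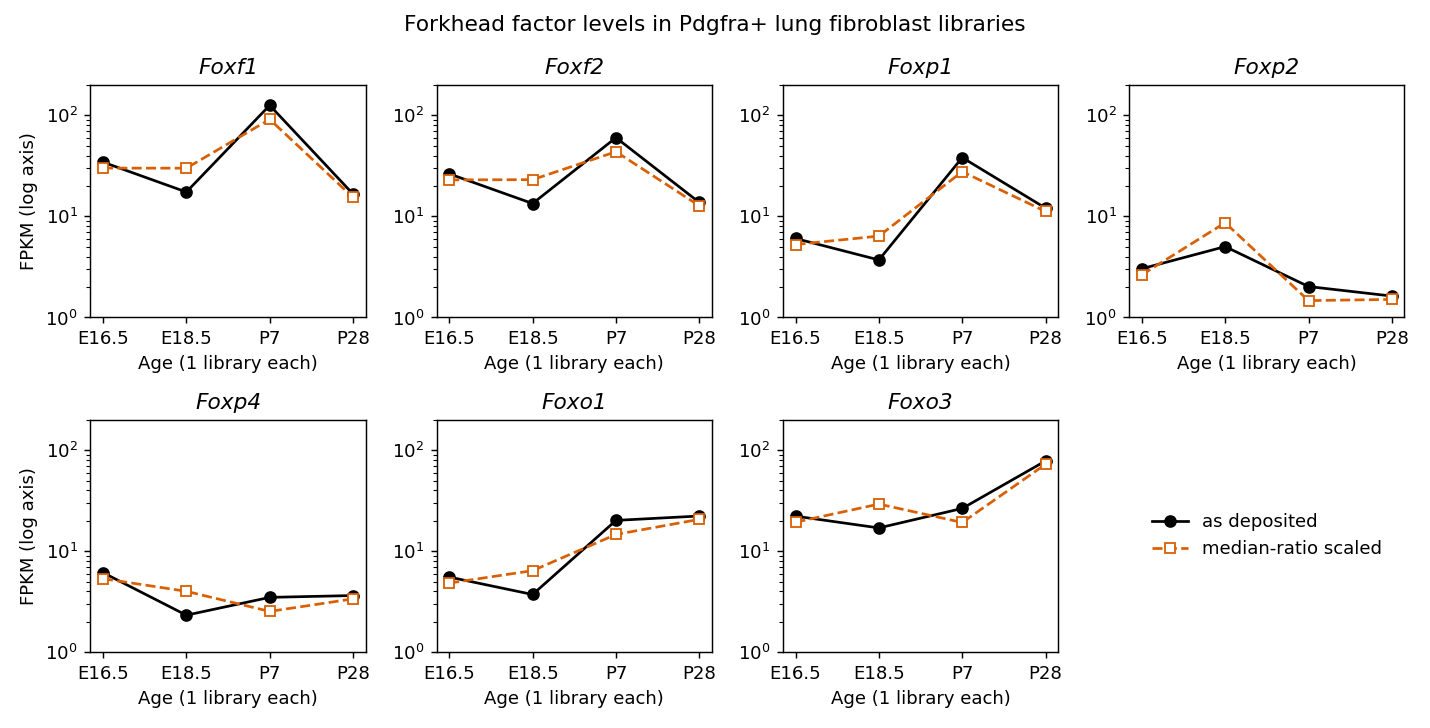
FPKM of each of the 7 forkhead genes (log axis) at the 4 ages, evenly spaced on the horizontal axis with 1 library each, as deposited (black circles) and after median-ratio scaling (open orange squares). Foxf1, Foxf2 and Foxp1 are highest at P7, Foxo1 and Foxo3 at P28 and Foxp2 at E18.5, and scaling mainly moves the E18.5 points up.

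The genes around both loci were read for comparison. Fendrr, a long noncoding RNA of lateral mesoderm whose annotated start lies 1276 bases from that of Foxf1 on the opposite strand, had 11.1, 15.2, 29.4 and 3.73 FPKM. Its highest and lowest libraries as deposited were P7 and P28, as for Foxf1, but after scaling Fendrr was highest at E18.5 (26.1, against 21.3 at P7). The ratio of Foxf1 to Fendrr was 3.09, 1.15, 4.28 and 4.45 in order of age, so the E18.5 library held the most Fendrr relative to Foxf1. The sources used here do not say whether the counting used strand. The annotated spans of Fendrr (121054882 to 121083110) and Foxf1 do not overlap, so strand would bear only on transcripts that run past these spans. Foxl1, a gut mesenchyme factor 43.6 kb from the Foxf1 start, ran from 3.12 FPKM at E16.5 down to 0.356 at P28, while Foxc2 and Mthfsd of the same stretch stayed at or below 1.22 FPKM. Beside Foxf2, Foxq1 (69.7 kb away) was at 2.18, 2.75, 8.17 and 1.89 FPKM and so was also highest at P7, whereas Foxc1 stayed at or below 0.366 and Gmds at or below 2.22.

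Foxp1, a repressor with roles in lung epithelium, endothelium and heart (chromosome 6, 98925338 to 99522721, minus strand), had the largest range of the set as deposited, 10.3-fold. After scaling its range was 5.26-fold, below those of Foxf1 (5.92-fold) and Foxp2 (5.90-fold). The fetal values were 6.05 FPKM (E16.5) and 3.71 (E18.5), and the postnatal ones 38.2 (P7) and 12.1 (P28), or 5.27, 6.39, 27.7 and 11.2 after scaling. P7 was highest on both scales and P28 second, above both fetal libraries. The fold for P7 against E16.5 was 6.32 as deposited and 5.26 after scaling, and Foxp1 moved from rank 5075 at E16.5 to 932 at P7. The annotation lists 31 transcripts of the gene, and the deposited value does not separate them.

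In the RefSeq promoter sequences (GRCm38.p6) there were 7 windows for 5 of the 7 genes: 3 of Foxp1 and 1 each of Foxf2, Foxo1, Foxo3 and Foxp4. The 250 bases before each start were searched on both strands for the forkhead-binding letters TGTTTAC and TGTTTAT, and for the GLI letters TGGGTGGTC because hedgehog signalling acts on FoxF genes. TGTTTAT was found in 2 windows, both of Foxp1, and TGTTTAC and the GLI letters in 0 of 7. Among all 32851 windows of this length, 7.10% held either forkhead form and 0.225% the GLI letters. The forkhead letters, in capitals below, begin 92 and 77 bases before the start. Both Foxp1 windows are shown because they are starts of a forkhead gene that hold forkhead letters, and the Foxf2 window because the FoxF pair had the largest share of the set in 3 libraries. They are on the minus strand for Foxp1 and the plus strand for Foxf2, and read 5′ to 3′.
Foxp1, chr6:99520994-99521243: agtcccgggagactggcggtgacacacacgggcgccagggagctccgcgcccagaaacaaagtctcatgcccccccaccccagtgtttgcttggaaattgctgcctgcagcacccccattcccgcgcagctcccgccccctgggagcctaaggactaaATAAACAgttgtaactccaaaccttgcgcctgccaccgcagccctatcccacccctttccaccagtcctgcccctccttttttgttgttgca
Foxp1, chr6:99266516-99266765: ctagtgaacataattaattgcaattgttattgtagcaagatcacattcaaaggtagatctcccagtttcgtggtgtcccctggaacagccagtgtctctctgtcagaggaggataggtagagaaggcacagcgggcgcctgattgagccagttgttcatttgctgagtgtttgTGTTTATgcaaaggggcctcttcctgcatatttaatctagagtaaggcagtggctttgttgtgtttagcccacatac
Foxf2, chr13:31625566-31625815: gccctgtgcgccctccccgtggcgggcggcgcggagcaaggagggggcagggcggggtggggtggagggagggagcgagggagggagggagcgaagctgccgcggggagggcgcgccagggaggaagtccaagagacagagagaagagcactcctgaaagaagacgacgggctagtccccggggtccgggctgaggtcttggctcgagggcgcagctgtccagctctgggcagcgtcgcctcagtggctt
The first Foxp1 window had 60.8% G and C and the second 45.2%, against 71.6% for Foxf2 and a median of 52.4% over all windows. A match is a string of letters and not evidence of binding, and the FPKM of Foxp1 does not tell which of its starts was used.

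Foxp2, which is made in distal lung epithelium and in parts of the brain (chromosome 6, 14901349 to 15441977, plus strand), was low throughout, with 3.04 (E16.5), 5.03 (E18.5), 2.02 (P7) and 1.63 (P28) FPKM. It was the 1 gene of the set whose highest library was E18.5, on both scales, with scaled values of 2.65, 8.66, 1.47 and 1.51. Its rank was 3298 at E18.5 and between 7616 and 9692 in the other libraries. Summed erythroid and epithelial markers were also higher at E18.5 than at the ages on either side. Erythroid genes summed to 6.10, 488, 21.7 and 1.65 FPKM, and epithelial genes to 39.4, 151, 64.9 and 31043. The epithelial sum was thus highest at P28, the library where Foxp2 was lowest as deposited (1.63). After scaling 5 of 16 epithelial genes were at least 2-fold higher at E18.5 than at E16.5, where 9.34% of all genes at 5 FPKM or more were. At P7, 5 were lower than at E18.5, where 12% of genes were. Epithelial genes under 5 FPKM in both libraries of a pair could not be counted. As deposited 8 of the 16 were under 1 FPKM in the E16.5 library, and 5 in the E18.5 library. The counts out of 16 and the shares of all genes thus have different bases and cannot be compared directly. The part of erythroid and epithelial cells in the Foxp2 value was not tested. Foxp4, the third lung FoxP factor (chromosome 17, 47867133 to 47924645, minus strand), had 6.13 FPKM in the E16.5 library, then 2.33 (E18.5), 3.49 (P7) and 3.64 (P28). E16.5 was highest on both scales, and after scaling the other 3 libraries lay between 2.53 at P7 and 4.01 at E18.5. The leukocyte genes were high in the same E16.5 library, and their part in the Foxp4 value was not tested. The make-up of the FoxP group therefore differed from library to library. The ratio of Foxp1 to Foxp2 was 1.99, 0.738, 18.9 and 7.41, and that of Foxp1 to Foxp4 was 0.987, 1.59, 10.9 and 3.32.

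Foxo1, the FoxO factor with known roles in endothelium and metabolism (chromosome 3, 52268336 to 52353221, plus strand), had fetal values of 5.54 (E16.5) and 3.73 (E18.5) FPKM and postnatal ones of 20.2 (P7) and 22.3 (P28). The postnatal libraries were both above the fetal ones, by 3.03-fold at P7 and 4.27-fold at P28 relative to E16.5 after scaling. Foxo3, which has roles in quiescence and stress resistance (chromosome 10, 42181841 to 42276755, minus strand), kept to 22.2 (E16.5), 17.0 (E18.5) and 26.5 (P7) FPKM and stood at 78.2 in the P28 library. After scaling the first 3 values were 19.4, 29.2 and 19.2, and P28 stood alone at 72.5, a fold of 3.77 over P7. Foxo3 moved from rank 1449 at P7 to 332 at P28. The ratio of Foxo3 to Foxo1 was 4.01, 4.56, 1.31 and 3.51 in order of age, so the postnatal height of Foxo1 was reached by P7 and that of Foxo3 seen at P28. Of the other FoxO genes, Foxo4 and Foxo6 did not pass 1.09 FPKM in any library.

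Set together, the 7 genes summed to 104, 62.6, 276 and 148 FPKM. FoxF genes made up 58.6% of that sum in the E16.5 library, 49.3% in E18.5, 67.3% in P7 and 20.5% in P28. FoxO genes made up 26.7%, 33.1%, 16.9% and 67.8%, and FoxP genes stayed between 11.7% and 17.7%. Foxf1 alone gave 45.5% at P7, and Foxo3 alone gave 52.8% at P28. Foxo3 was at 0.211 times the FPKM of Foxf1 at P7 and 4.70 times at P28, a turn-over of the leading gene that does not depend on how either library is scaled.

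**Figure D2:**
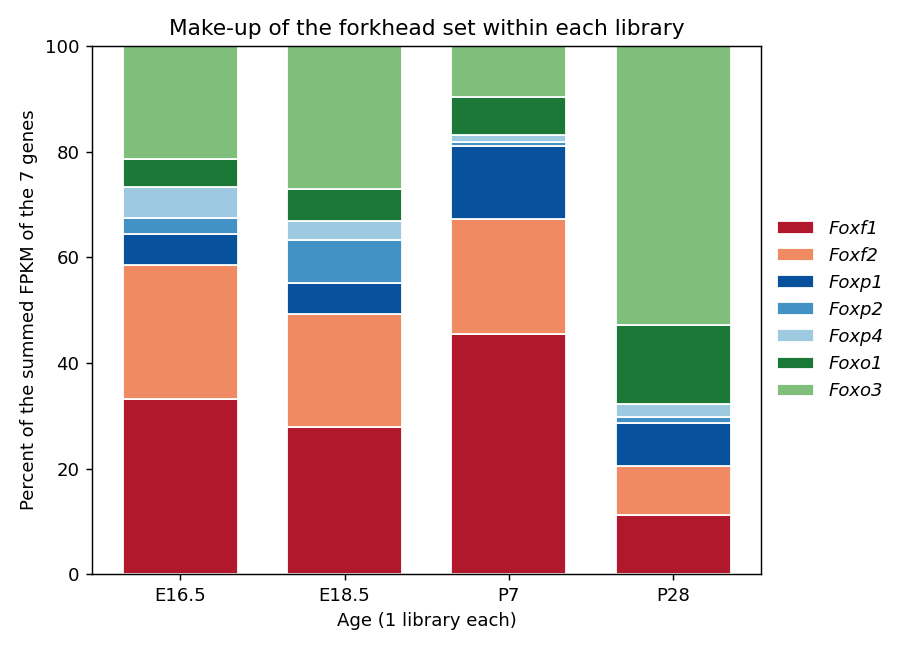
Each bar is 1 library and shows the percent of the summed FPKM of the 7 genes that each gene contributes. Foxf1 is the tallest segment at P7 (45.5%) and Foxo3 at P28 (52.8%), while FoxP genes together stay between 11.7% and 17.7%.

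Genes were counted as apart when log2(FPKM + 1) differed by at least 1, with 5 FPKM or more in the higher library. That is 2-fold on FPKM + 1 and more than 2-fold on FPKM itself. For E18.5 against E16.5, 0 of 7 genes were higher and Foxp4 alone was lower as deposited (log2 difference -1.10), where 2.32% of all 5979 genes at that level were higher and 47.4% lower. After scaling Foxp4 was not (-0.34) and Foxp2 was higher (1.41), against a background of 9.34% higher and 12.2% lower. Foxf1 and Foxf2 differed by -0.94 and -0.93 as deposited, and by 0.00 and 0.01 after scaling. In this comparison 4 genes had a different sign on the 2 scales, Foxf2, Foxp1, Foxo1 and Foxo3.

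For P7 against E18.5, Foxf1, Foxf2, Foxp1 and Foxo1 were at least 2-fold higher as deposited, as were 63.3% of all genes at this level, so that count of 4 of 7 is close to the background. As deposited 0 of 7 were lower, where 2.89% of genes were. Foxp2 differed by -0.996, just short of the threshold, though its FPKM was 2.49-fold lower at P7. After scaling Foxf1 (1.57), Foxp1 (1.96) and Foxo1 (1.08) were higher, where 14.7% of genes were, and Foxp2 was lower (-1.97), where 12% were. Foxf2 at 0.89 stayed under the threshold. Foxp4 and Foxo3 had log2 differences of 0.43 and 0.61 as deposited and of -0.50 and -0.58 after scaling.

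P7 against E16.5 leaves out the E18.5 library. Foxf1 (log2 difference 1.84), Foxf2 (1.16), Foxp1 (2.48) and Foxo1 (1.69) were at least 2-fold higher as deposited, against 15.7% of genes, and 0 of 7 were lower, against 6.68%. After scaling Foxf1 (1.57), Foxp1 (2.20) and Foxo1 (1.42) were, against 12.3%, 0 of 7 were lower, against 9.62%, and Foxf2 stood at 0.90. Foxp4 differed by -0.84 after scaling, though its scaled FPKM was 2.11-fold lower at P7. The P7 levels of Foxf1, Foxp1 and Foxo1 were thus at least 2-fold above either fetal library on both scales.

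For P28 against P7, the calls were the same on both scales. Foxf1 (-2.85, or -2.49 after scaling), Foxf2 (-2.05, or -1.70) and Foxp1 (-1.59, or -1.24) were lower, where 16.9% of genes were lower as deposited and 10.3% after scaling. Foxo3 was higher (1.53, or 1.86), where 10.5% and 14.6% of genes were. The difference of Foxf1 was beyond that of the central 95% of all genes at this level, whose lower end was -2.43 as deposited and -2.12 after scaling. Foxo1 differed by 0.14 and 0.47.

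Between the ends of the course, P28 against E16.5, Foxo1 (1.83, or 1.89 after scaling) and Foxo3 (1.77, or 1.85) were higher, beside 18% of genes as deposited and 19.7% after scaling. Foxf1 was just past the threshold as deposited (-1.01), where 16.9% of genes were lower, and not after scaling (-0.92), where 15% were. Foxp1 lay just under it, at 0.89 and 0.96, though its scaled FPKM at P28 was 2.12-fold that at E16.5. These comparisons share libraries, so the P7 value of a gene enters 3 of the 5 and none is independent of the others.

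**Figure D3:**
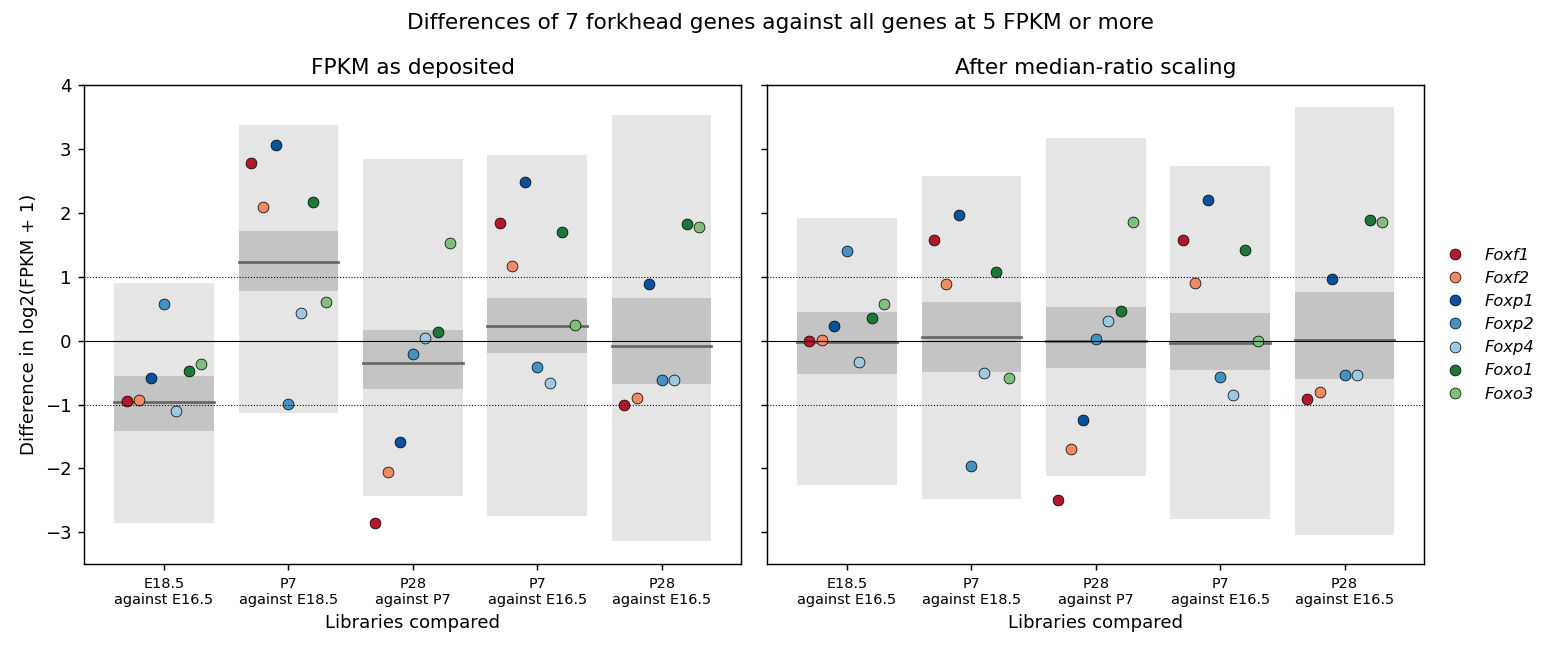
Differences in log2(FPKM + 1) of the 7 genes (points) for 5 pairs of libraries, as deposited (left) and after median-ratio scaling (right), over the central 95% (light bars) and 50% (dark bars) of all genes at 5 FPKM or more, with their median as a line and dotted lines at the 2-fold threshold. Foxf1, Foxp1 and Foxo1 lie above the threshold in both comparisons of P7 with a fetal library on both scales, and Foxf1 lies below the light bar for P28 against P7.

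Markers of other cell types moved with some of these genes. The 15 endothelial genes summed to 38.6, 47.3, 1043 and 276 FPKM, with 0 of 15 at 0 in any library, and all 15 were at least 2-fold higher at P7 than in either fetal library on both scales. Of all genes at 5 FPKM or more, 63.3% were higher at P7 than at E18.5 (14.7% after scaling). Against E16.5 the share was 15.7% (12.3%). The adhesion molecule Pecam1 was at 3.45, 6.65, 128 and 33.3 FPKM, and the VEGF receptor Kdr at 1.31, 1.74, 68.7 and 23.6. The order of both, P7 highest, P28 next and the fetal libraries low, is that of Foxp1, and like Foxf1 and Foxf2 they were highest at P7. Foxf1 and Foxf2 differ from them in that P28 was their lowest library after scaling. Foxf1 stood at 34.5, 17.4, 126 and 16.6 FPKM where the endothelial sum was 0.0215%, 0.0471%, 0.536% and 0.125% of all FPKM. The part of the endothelial signal in the levels of Foxf1, Foxf2, Foxp1 and Foxo1 was not tested. In bulk RNA more cells of a type and more RNA per cell cannot be told apart.

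**Figure D4:**
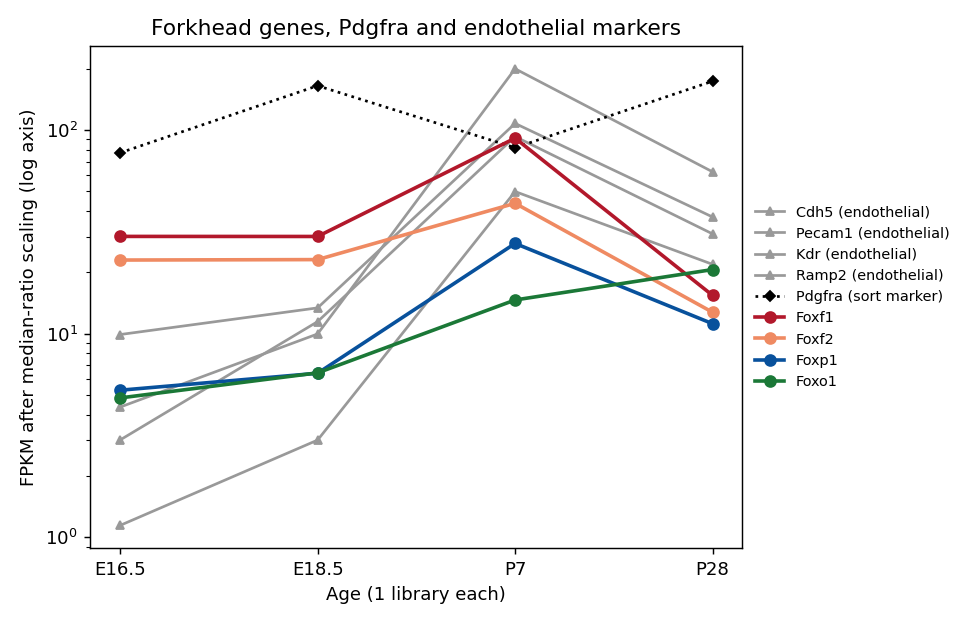
FPKM after median-ratio scaling (log axis) at the 4 ages, evenly spaced with 1 library each, for 4 forkhead genes (coloured), Pdgfra (dotted black) and 4 endothelial markers (grey). The endothelial markers and Foxp1 share the order P7, P28, E18.5 and E16.5 from high to low, whereas Foxf1 and Foxf2 are lowest at P28 and Foxo1 is highest there.

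The summed FPKM of 13 pericyte and smooth muscle genes was 344, 188, 656 and 67.4, the order of Foxf1 as deposited, and the contractile genes Acta2 (168, 39.5, 216 and 9.95) and Actg2 (49.5, 12.3, 99.1 and 0.931) made up much of it at P7. The members did not all share this order. For P28 against P7, 0 were higher and 9 lower (1 and 8 after scaling), but for P28 against E16.5, 3 were higher and 4 lower on both scales. Of all genes at 5 FPKM or more, 10.5% were higher and 16.9% lower in the first (14.6% and 10.3% after scaling). In the second the shares were 18% and 16.9% (19.7% and 15%). Abcc9, a potassium channel subunit of pericytes, was highest at P28 as deposited (1.33, 5.77, 4.55 and 8.87) and at E18.5 after scaling. Cell division genes summed to 443, 42.4, 319 and 32.6 FPKM, so they were high at both E16.5 and P7. The part of these cells or states in the Foxf1 and Foxf2 levels was not tested. The P28 library, where Foxo1 and Foxo3 were highest, was also the one with the most epithelial transcripts. On both scales 12 of 16 epithelial genes were at least 2-fold higher there than at P7, beside 10.5% of all genes (14.6% after scaling). Summed mesothelial genes (2.42, 12.1, 60.0 and 192 FPKM) and general fibroblast genes (2461, 1933, 4247 and 8340) were also highest at P28. The part of any of these groups in the Foxo1 and Foxo3 values was not tested. Of the leukocyte genes, 13 of 15 were under 1 FPKM at P28, while Lyz2, which macrophages and alveolar type 2 cells make, was at 955, 40.5, 15.0 and 5062 FPKM.

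Among the other 37 forkhead genes 14 reached 1 FPKM in a library and 8 reached 5. The most abundant were Foxn3, at 19.5, 9.84, 36.9 and 28.2 FPKM in order of age, and Foxm1, a driver of mitotic genes, at 13.3, 0.50, 16.6 and 1.91. Foxm1 is itself on the list of cell division genes and was high where their sum was. Foxk1, Foxj3, Foxk2 and Foxj2, widely expressed family members, peaked between 9.09 and 10.8 FPKM, and after scaling the 4 genes differed by at most 0.64 on the log2 scale in any of the 5 comparisons. The epithelial factors Foxa1, Foxa2 and the ciliated cell factor Foxj1 were at 2.91, 1.70 and 4.88 FPKM at P28 and at or below 0.380 FPKM elsewhere, in the library with the epithelial transcripts. The 7 genes made up 58.7%, 65.0%, 71.6% and 65.4% of the summed FPKM of all 44 forkhead genes.

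**Figure D5:**
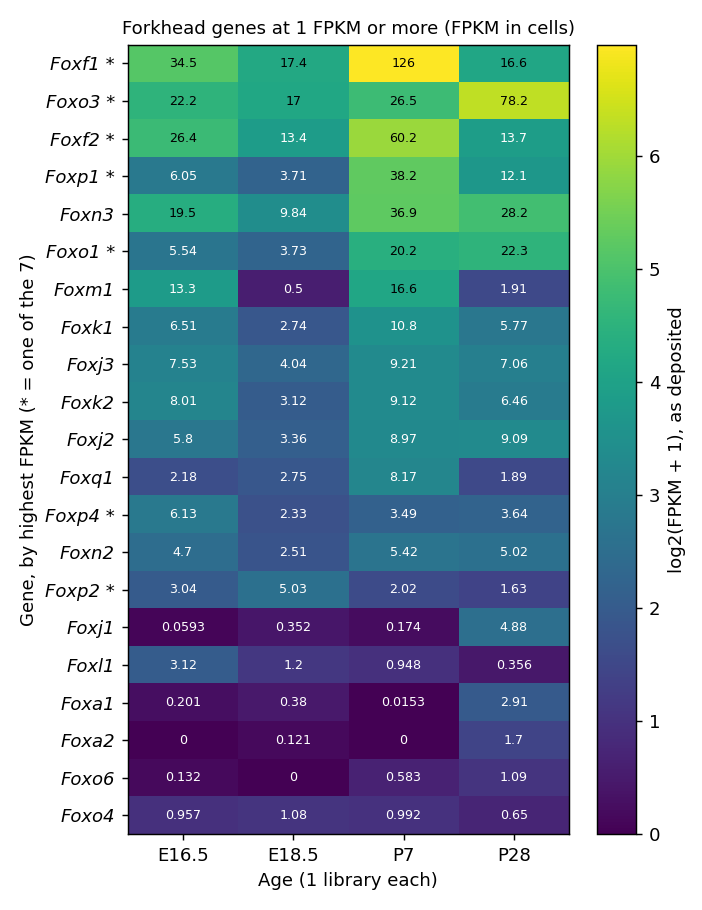
FPKM as deposited (numbers) and log2(FPKM + 1) (colour) of the 21 forkhead genes at 1 FPKM or more in a library, in order of their highest value, with the 7 genes described here starred. Foxf1 at P7 (126) and Foxo3 at P28 (78.2) are the highest entries, and Foxj1, Foxa1 and Foxa2 are above 1 FPKM at P28 alone.

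Upstream of FoxF, 12 of 12 hedgehog pathway genes were measured, meaning at 1 FPKM or more in a library. For P7 against E16.5, 0 were at least 2-fold higher and 1 lower, the hedgehog-binding protein Hhip, on both scales, and for P28 against P7, 2 were higher and 2 lower on both scales. Of all genes at 5 FPKM or more, 15.7% were higher and 6.68% lower in the first comparison (12.3% and 9.62% after scaling). In the second, 10.5% were higher and 16.9% lower (14.6% and 10.3%). Measured genes under 5 FPKM in both libraries of a pair, as Gli1 was at P7 and P28, could not be counted. Here and in the other lists, counts out of the measured genes and shares of all genes thus have different bases. The receptor and target gene Ptch1 was at 60.5, 19.3, 51.3 and 17.2 FPKM. Its P7 value was thus not above E16.5, unlike that of Foxf1, while P28 was low for both. The target and effector Gli1 was at 5.02, 1.85, 3.57 and 1.71 FPKM, the repressor-forming Gli3 at 7.88, 2.83, 7.68 and 2.05, and the co-receptor Gas1 at 7.31, 3.26, 9.98 and 35.7. Gas1 and the co-receptor Cdon (2.48, 0.948, 2.73 and 7.39) were the pair higher at P28. The median log2 difference of the list for P28 against P7 was -0.41 (-0.11 after scaling), beside -0.25 (0.04) over all genes at 1 FPKM or more in either library.

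Of 16 genes on a list of lung mesenchyme regulators and signals, which holds Foxf1 and Foxf2 themselves, 15 were measured. For P28 against P7, 3 were higher and 7 lower (5 and 6 after scaling), and for P7 against E16.5, 3 were higher and 1 lower (2 and 1). Over all genes at 5 FPKM or more the shares were 10.5% higher and 16.9% lower for P28 against P7 (14.6% and 10.3% after scaling). For P7 against E16.5 they were 15.7% and 6.68% (12.3% and 9.62%). The 3 higher for P7 against E16.5 were Foxf1, Foxf2 and Fendrr, and the 2 after scaling Foxf1 and Fendrr. No other gene of the list was counted as higher there. Foxf1, Foxf2 and Fendrr were also among those lower for P28 against P7 on both scales. Tbx3, a T-box factor, was at 33.3, 28.0, 61.5 and 11.3 FPKM, with P28 lowest, as for Foxf1, and P7 highest as deposited, though E18.5 was highest after scaling (48.2, against 44.6). Its relative Tbx5, which acts in lung bud formation, was at 48.8, 28.0, 44.5 and 14.5, without a P7 height over E16.5. Tcf21, a fibroblast lineage factor, had its lowest value at P7 and its highest at P28, at 34.5, 51.6, 25.9 and 141 FPKM. Wnt2, a mesenchymal signal to lung epithelium, was at 8.72, 3.95, 3.53 and 6.79.

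FoxP corepressor genes, subunits of NuRD and the CtBP proteins, were all measured (14 of 14). After scaling 0 of 14 were at least 2-fold apart in either direction for E18.5 against E16.5, P28 against P7, P7 against E16.5 and P28 against E16.5, and 1 was higher for P7 against E18.5. Of all genes at 5 FPKM or more, 9.34%, 14.6%, 12.3%, 19.7% and 14.7% were higher in these comparisons after scaling, in that order. The shares lower were 12.2%, 10.3%, 9.62%, 15% and 12%. As deposited 9 were lower for E18.5 against E16.5, where 47.4% of all genes were, and 8 higher for P7 against E18.5, where 63.3% were. For P28, 2 were lower against P7 and 2 against E16.5, where 16.9% of genes were lower in each. Their most abundant member, Gatad2b, was at 52.1, 18.2, 63.6 and 38.4 FPKM, and the histone deacetylase Hdac1 at 46.9, 12.7, 46.8 and 25.2. Foxp1 had a range of 5.26-fold over the libraries after scaling, which is not the same measure as a count of calls.

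Genes that control FoxO proteins were measured in full (25 of 25). For P28 against P7, 0 were higher and 6 lower (1 and 1 after scaling), and for P28 against E16.5, 2 were higher and 3 lower (2 and 2). Over all genes at 5 FPKM or more the shares were 10.5% higher and 16.9% lower (14.6% and 10.3%) for the first, and 18% and 16.9% (19.7% and 15%) for the second. Sgk1, a kinase that phosphorylates FoxO proteins as AKT does, was at 7.97, 4.33, 77.0 and 19.8 FPKM, with P7 highest. The ubiquitin ligase subunit Skp2, which marks Foxo1 for breakdown, was at 19.3, 2.10, 6.70 and 1.49, with E16.5 highest and P28 lowest. Pik3r1, the regulatory subunit of PI3 kinase, was at 13.9, 18.1, 17.9 and 31.1, with P28 highest as deposited and E18.5 after scaling (31.1, against 28.8). Transcript levels do not show whether FoxO proteins were phosphorylated or nuclear.

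Of 38 genes described as FoxO targets in various cell types, 33 were measured. For P28 against P7, 9 were higher and 2 lower (11 and 1 after scaling), with a median log2 difference of 0.25 (0.51) beside -0.25 (0.04) over all genes. For P28 against E16.5, 8 were higher and 1 lower (9 and 1), with a median of 0.38 (0.46) beside -0.04 (0.04). For P7 against E16.5, where Foxo1 was higher and Foxo3 close to level after scaling, 4 were higher and 3 lower (3 and 2), and the median was 0.14 (-0.07). Over all genes at 5 FPKM or more, 10.5% were higher and 16.9% lower for P28 against P7 (14.6% and 10.3% after scaling), 18% and 16.9% for P28 against E16.5 (19.7% and 15%), and 15.7% and 6.68% for P7 against E16.5 (12.3% and 9.62%). Epithelial genes made up 14.1% of all FPKM in the P28 library, and their part in these differences was not tested. The thioredoxin inhibitor Txnip was at 18.0, 40.1, 50.7 and 91.0 FPKM, the pyruvate dehydrogenase kinase Pdk4 at 1.13, 2.73, 1.62 and 10.8, and the repressor Bcl6 at 5.08, 2.21, 0.692 and 11.3. Tsc22d3, which glucocorticoids also induce, was at 5.42, 7.02, 4.94 and 39.2, and catalase (Cat) at 37.8, 21.1, 57.7 and 119. For these 5 genes P28 was the highest library as deposited, as for Foxo1 and Foxo3. Other genes of the list had other orders. Bcl2l11 was lowest at P28, at 11.8, 4.71, 8.03 and 4.38 FPKM, and Bnip3 highest at E18.5, at 5.59, 12.2, 2.99 and 11.7. Klf2, a factor that endothelium also makes, was instead highest at P7, at 5.92, 3.21, 24.2 and 10.9 FPKM, and so was Pik3ip1, an inhibitor of PI3 kinase, at 4.70, 2.13, 21.9 and 4.60.

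The genes most like each forkhead gene were ranked by Euclidean distance between centred log2(FPKM + 1) profiles over the 4 scaled libraries among 6976 other genes. The 5 nearest to Foxf1 were Tgfb2, Aard, Pde4b, Wisp1 and Car2, at distances of 0.33 to 0.48, and Foxf2 was at place 21 (0.63). Those nearest to Foxf2 were Cacnb3, Man1c1, Pag1, Cnn3 and Meox1 (0.12 to 0.27). Tgfb2, a TGF-beta ligand, was at 12.3, 7.16, 42.2 and 7.06 FPKM, and Meox1, a mesodermal homeobox factor, at 6.75, 3.36, 14.9 and 2.28. Both sets were high at P7 and low at P28, as the rule asks.

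Among those nearest to Foxp1 were Grap, Cd97, Rnf144a and Parvb (0.12 to 0.24), with Foxf1 at place 1145. Nearest to Foxo1 were Ncald, Gpr146, Serpinb9, Gja1 and Pon2 (0.07 to 0.17), and nearest to Foxo3 were Bcl2l1, Gpc3, Deptor, Tmem38b and Cacna1d (0.09 to 0.16). Gpc3, a glypican of growing mesenchyme, was at 45.8, 32.7, 56.7 and 169 FPKM. Foxo1 and Foxo3 were each at a distance of 1.31 from the other, and Foxp1 was nearer to Foxo1 (1.21) than to Foxf1 (1.45). Nearest to Foxp2 were Ptpn2, Litaf, Pnrc1, Myeov2 and Fam195b (0.07 to 0.27), and to Foxp4 Phip, Uba6, Mdh1, Polr1c and Fcf1 (0.05 to 0.14). With 4 libraries many genes share any given profile, and the distances are a description of these libraries.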

How the data were processed

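RNA-seq of sorted Pdgfra-positive lung fibroblasts was used from 4 libraries, 1 per age. The authors deposited FPKM per gene in 1 table, per the file headers. TopHat and TopHat2 2.0.9 and the builds GRCm38 and mm10 are named per the submitters' processing notes; the program that made the FPKM is not given in these sources. FPKM holds no read totals, so depth is unknown; the commonest ratio of values below 0.1 FPKM put E16.5 at about 1.40 times the depth of E18.5, 0.946 times P7 and 1.06 times P28.

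Entries with the same symbol were summed (258 symbols, 745 entries; 0 of the 7 genes). Median-ratio factors were 1.15, 0.581, 1.38 and 1.08 in order of age, from the 7930 genes that reached 1 FPKM in each library. Differences are on the log2(FPKM + 1) scale, which understates those of low genes. The genes named besides the 7 are the 6 other forkhead genes with the highest FPKM, neighbours of Foxf1 and Foxf2, members of each list with the largest differences (up to 4) or highest level, and the 5 nearest profiles; epithelial Foxa and Foxj1, low FoxO genes and Abcc9 were added after their values were seen. Some genes that this rule names are not reported here. The 7 genes and all lists were chosen with earlier results of these data known. The calls were tried on simulated data: among 7930 genes, 200 differed 4-fold. These were split evenly between higher and lower, all had a mean of 20 FPKM or more, and the added noise was small beside the change. When 1 simulated library had 0.5 times its scale, unscaled values recovered 49% of the genes made higher and 100% of those made lower, and falsely called 795 lower. Median-ratio scaling recovered 100% in each direction and made 0 false calls. With such settings recovery was near certain once the scale was right, so this checks the scaling step alone. It does not bear on low genes such as Foxp2 and Foxp4, or on libraries that differ in many genes or in cell make-up. Gene coordinates are from GENCODE M21 (GRCm38). Python 3.11.15, numpy 2.4.6, pandas 2.3.3 and matplotlib 3.10.9 were used.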

Additional observations from a re-analysis of the deposited data

How the results depend on the processing

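Alternatives covered the pseudocount (0.1 or 5), the minimum (absent, or 20 FPKM), the threshold (4-fold) and the scaling (median-ratio, upper-quartile, or by the total without ribosomal protein, erythroid and mitochondrial genes, here remaining-total). As deposited, 4 of the 7 genes were at least 2-fold apart in each comparison that involves P7, 3 between P28 and E16.5, and 1 between the fetal libraries. For E18.5 against E16.5 the count was 0 with a pseudocount of 5, with a minimum of 20 FPKM and with a 4-fold threshold. With the 4-fold threshold it was 2 for P28 against P7, 1 for P7 against E16.5 and 0 for P28 against E16.5. All other counts were within 1.5 times, but a count leaves out the direction. For E18.5 against E16.5 it stayed at 1 under each scaling, but the gene was Foxp4, lower, as deposited and Foxp2, higher, after scaling. For P7 against E18.5 the split was 4 higher and 0 lower as deposited, and 3 and 1 with median-ratio scaling. Of 175 values of single genes under 5 of these alternatives, 155 kept their call, 20 gained or lost one and 0 called values changed sign. With upper-quartile scaling Foxo1 fell just short for P7 against E18.5 (log2 difference 0.96), and with remaining-total scaling Foxf2 passed as lower for P28 against E16.5 (-1.30). No replicate could be left out and no paired analysis was possible because each age had 1 library. The depth is unknown, so no counting interval can be given, which bears most on Foxp2 and Foxp4.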
